A study of Drosophila melanogaster with 14 samples.

Results

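Open chromatin was described at Mmp1, Mmp2 and Timp, which encode the matrix metalloproteases of the fly and their inhibitor, in the wing disc of Drosophila melanogaster larvae, an epithelium that later becomes the wing. The assay was ATAC-seq, which uses a transposase to tag accessible DNA. Peaks of short, nucleosome-free fragments from all 14 libraries were merged where they overlapped or touched, and regions overlapping the gene body of a member extended by 5 kb on each side were taken. The 3 genes held 29 of the 33226 regions, 8 at Mmp1, 15 at Mmp2 and 6 at Timp, against a median of 5 per protein-coding gene.

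The 7 groups were regenerating discs at 0, 15 and 25 h after cell death had been induced, larval discs outside the time course (L3), and control discs kept alike without cell death at 0, 15 and 25 h, all from larvae of the same labelled instar. Each group had 2 libraries, and 10 discs went into each genotype and condition. The labels call regeneration and control separate genotypes and name neither the alleles nor the driver of cell death, so damage and genotype cannot be told apart. They give replicates only a number, so the spread between libraries that p-values measure here may be technical. In bulk discs, fewer open cells and less opening per cell cannot be told apart.

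The 14 libraries listed 19174 to 24139 nucleosome-free peaks and 11145 to 13387 mononucleosome peaks, which come from fragments that span a nucleosome. The background pile-up, a measure of depth, lay between 1.62 and 3.67 nucleosome-free fragments, and the shallowest library was control 0 h replicate 1. A peak had formed at the promoter, within 200 bp of a start, in all 14 libraries for 6 of 6 wing disc marker genes. The same held for 0 of 4 hemocyte, 1 of 4 myoblast, 2 of 3 trachea, 1 of 3 fat body and 1 of 2 neuron marker genes. The part of other cell types in the results was not tested.

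Matrix metalloproteases are zinc enzymes that cut proteins of the extracellular matrix, and a Timp blocks them by binding to their catalytic site. Mmp1 is chiefly secreted, Mmp2 is held at the cell surface by a lipid anchor, and both take part in remodelling the basement membrane during disc eversion, wound closure and tumour invasion in flies. Mmp1 is a known target of JNK signalling through the transcription factor AP-1 in wounded and dying disc tissue. Timp lies inside an intron of Syn, the gene of the synaptic vesicle protein Synapsin, on the opposite strand.

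The sequences shown are those of Timp on chromosome arm 3R, read from RefSeq's Release 6 assembly (dm6). The first is the 250 bp before the Timp transcription start, chr3R:10213008-10213257 on the minus strand, and is shown because all 14 libraries had a peak over the part nearest the start. The peaks ended between 10213186 and 10213264, so the far end of the sequence lay outside the peak in some libraries. Its capitals mark GAGAG, the GAGA factor motif, which lies on the other strand at bases 70 to 74 and 194 to 198. The second is 300 bp at chr3R:10215029-10215328 on the plus strand, and is shown because regenerating discs gained a region there. Its capitals mark the 161 bases of a coding exon of Syn, and the 139 bases in lower case belong to the intron that follows.
Timp upstream: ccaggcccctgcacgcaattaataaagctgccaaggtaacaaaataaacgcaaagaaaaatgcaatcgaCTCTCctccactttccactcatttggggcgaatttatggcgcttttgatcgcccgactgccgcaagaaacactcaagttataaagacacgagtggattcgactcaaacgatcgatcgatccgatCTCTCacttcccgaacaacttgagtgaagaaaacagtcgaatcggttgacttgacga
Syn exon region: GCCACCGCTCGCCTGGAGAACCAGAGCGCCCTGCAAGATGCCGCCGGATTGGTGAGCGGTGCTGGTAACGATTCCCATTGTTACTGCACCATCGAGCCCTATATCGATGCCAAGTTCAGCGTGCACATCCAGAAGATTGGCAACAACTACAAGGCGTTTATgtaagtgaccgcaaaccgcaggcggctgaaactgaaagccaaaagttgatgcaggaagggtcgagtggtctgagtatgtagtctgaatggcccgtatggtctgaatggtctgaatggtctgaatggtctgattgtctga
The intron part held a tandem repeat of a 9 bp unit that was 36 bp long (3R, 10215285 to 10215320).

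Chromatin was open at 1 transcription start of each gene in every library, damaged or not. Mmp1 (FBgn0035049) lies on 2R, 24671294 to 24688184, minus strand, and Mmp2 (FBgn0033438) on 2R, 9611139 to 9683858, minus strand. Timp (FBgn0025879) lies on 3R, 10203875 to 10213007, minus strand, within Syn (3R, 10190689 to 10222442, plus strand). Of the 3 annotated Mmp1 starts only the one at 24685090, which 5 transcripts use, had a region within 200 bp, and those at 24687377 (4 transcripts) and 24688184 (1 transcript) had none. Of the 2 Mmp2 starts, the one at 9683858 had a region and the one at 9658230 had none, while the single Timp start at 10213007 had one. Among all protein-coding starts 54.4% had a region within 200 bp, and 35.1% had one in all 14 libraries.

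To place each peak within its own library, the percentile of the authors' fold enrichment in that library's list was used. Lists differ in length and depth, so percentiles rank peaks within a library and show no change between libraries. At the Mmp1 start (2R, 24684995 to 24685614) L3 discs had percentiles of 86.1 and 86.4. They were 86.3 and 84.1 in regenerating and 76.5 and 85.0 in control discs at 0 h. Values were 84.8 and 83.9 in regenerating and 84.4 and 82.8 in control discs at 15 h, while regenerating discs had 85.4 and 83.6 and control discs 88.9 and 86.0 at 25 h. The values of control 0 h replicate 1, the shallowest library, and of control 25 h replicate 1 were the lowest and the highest, and the groups overlapped at 0 and 15 h and did not at 25 h.

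At the Mmp2 start (2R, 9683802 to 9684049) the percentiles ranged from 81.4 to 96.2 and were higher than at the Mmp1 start except in regenerating 25 h replicate 1. L3 discs had 95.6 and 96.2, and at 0 h regenerating discs had 92.0 and 96.1 and control discs 94.2 and 94.2. At 15 h regenerating discs had 92.9 and 89.0 and control discs 90.6 and 90.9, and at 25 h regenerating discs had 81.4 and 91.1 and control discs 91.5 and 93.8. Regenerating 25 h replicate 1 stood lowest, and the groups overlapped at 0 and 15 h. Both 25 h regenerating libraries lay below both controls. A further Mmp2 region in the 5′ UTR, 381 bp downstream of this start (2R, 9683144 to 9683477) was also in all 14 libraries, with a median percentile of 50.3.

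The Timp start region (3R, 10212900 to 10213264) was the only one of the 6 Timp regions found in all 14 libraries. Its percentiles were 95.6 and 85.9 in L3 discs, and at 0 h regenerating discs had 96.5 and 89.7 and control discs 90.4 and 88.8. At 15 h regenerating discs had 95.9 and 96.6 and control discs 93.9 and 93.6, and at 25 h regenerating discs had 91.2 and 95.2 and control discs 92.4 and 86.9. The groups overlapped at 0 and 25 h, and at 15 h both regenerating libraries stood above both controls.

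**Figure D1:**
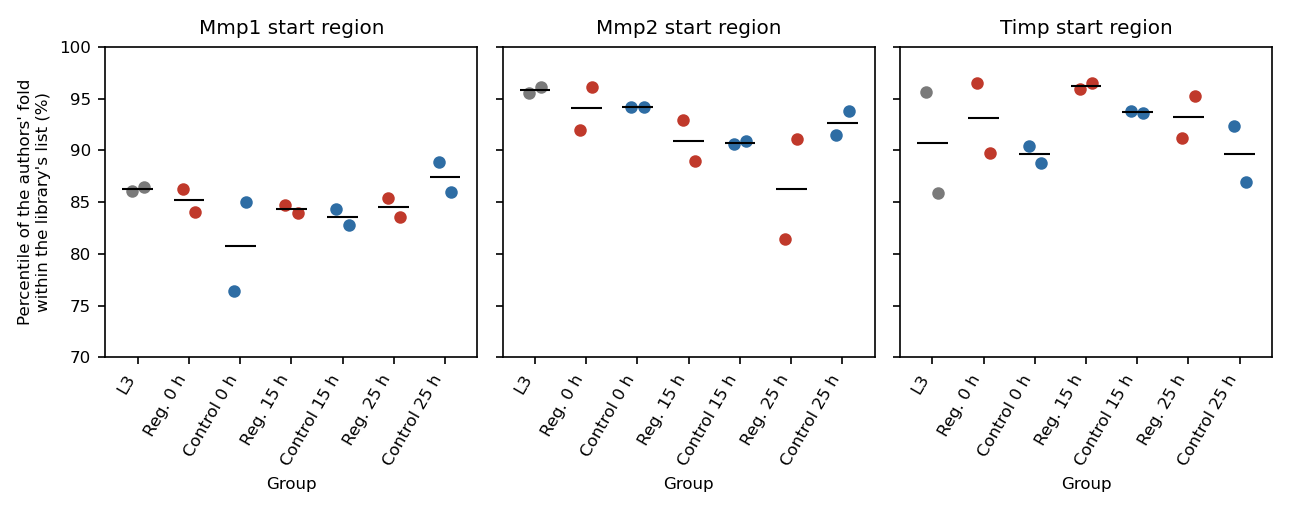
Percentile (%) of the authors' fold within its own list (y axis, from 70) for the nucleosome-free peak at the open start of Mmp1, Mmp2 and Timp, by group (x axis); points are the 2 libraries of a group and bars their mean. All values lie between 76.5 and 96.6, and Mmp1 is the lowest of the 3 in all but 2 libraries.

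Mononucleosome peaks covered the Mmp1 and Mmp2 start regions in all 14 libraries and the Timp start region in 13, control 0 h replicate 2 being the exception. Within the mononucleosome lists the Timp peak had percentiles of 58.8 and 41.8 in L3 discs. It had 78.6 and 79.3 in regenerating discs at 0 h, against 73.4 and no peak in controls. At 15 h regenerating discs had 73.9 and 79.4 and control discs 67.9 and 70.1, and at 25 h regenerating discs had 81.9 and 80.02 and control discs 50.6 and 56.3. At 15 and 25 h both regenerating libraries ranked above both controls, and at 0 h above the 1 control with a peak. The fold enrichments themselves overlapped at 15 h, with 5.81 and 6.65 in regenerating and 5.86 and 5.32 in control discs. They did not overlap at 25 h, with 6.91 and 6.28 in regenerating and 4.52 and 4.72 in control discs. At 0 h they were 7.15 and 8.12 in regenerating discs and 6.55 in the 1 control with a peak. Ranks and fold enrichments from separate lists were not tested. Mononucleosome depth differed between the libraries, with background pile-ups of 5.83 to 10.0 fragments.

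Away from the starts, Mmp1 and Mmp2 had further regions that every library listed. At Mmp1, 5 of 8 regions were in all 14 libraries. They included an intronic region 751 bp from the open start (2R, 24683929 to 24684339, median percentile 72.9). Another intronic region lay on the other side of the open start (2R, 24686036 to 24686448, 36.5). It was 929 bp from the start at 24687377, which had no region within 200 bp. A region over a coding exon and the 3′ UTR (2R, 24672993 to 24673390) had a median percentile of 72.8. The others were the open start and the shared promoter of CG33228 and Pof beyond the 3′ end of Mmp1 (2R, 24669212 to 24669440, 98.5). At Mmp2, 5 of 15 regions were in all 14 libraries, among them the start, the 5′ UTR region and a pair of neighbouring intronic regions centred 8.62 and 9.27 kb downstream. The wider of the pair (2R, 9674948 to 9675518, 571 bp) had a median percentile of 81.3 and the other (2R, 9674428 to 9674747) one of 37.8. The remaining one was the GstT2 promoter (2R, 9607153 to 9607352, 72.8).

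Of the 29 regions 11 (37.9%) were in all 14 libraries, against 40.8% of all regions, and 9 (31.0%) were in 1 library, against 15.0%. The 9 were 2 at Mmp1, 5 at Mmp2 and 2 at Timp. Median width was 229 bp among members and 188 bp over all regions, and 6 (20.7%) lay at a promoter, against 30.0%. L3 libraries had 20 and 17 member regions. There were 18 and 21 in regenerating and 16 and 16 in control discs at 0 h, and 16 and 18 in regenerating and 16 and 18 in control discs at 15 h. At 25 h there were 18 and 17 in regenerating and 16 and 14 in control discs. Regenerating libraries had more at 0 and 25 h, when their lists were also longer on average, with 23077.5 peaks against 20438.5 in controls at 0 h and 23291.5 against 21097 at 25 h.

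**Figure D2:**
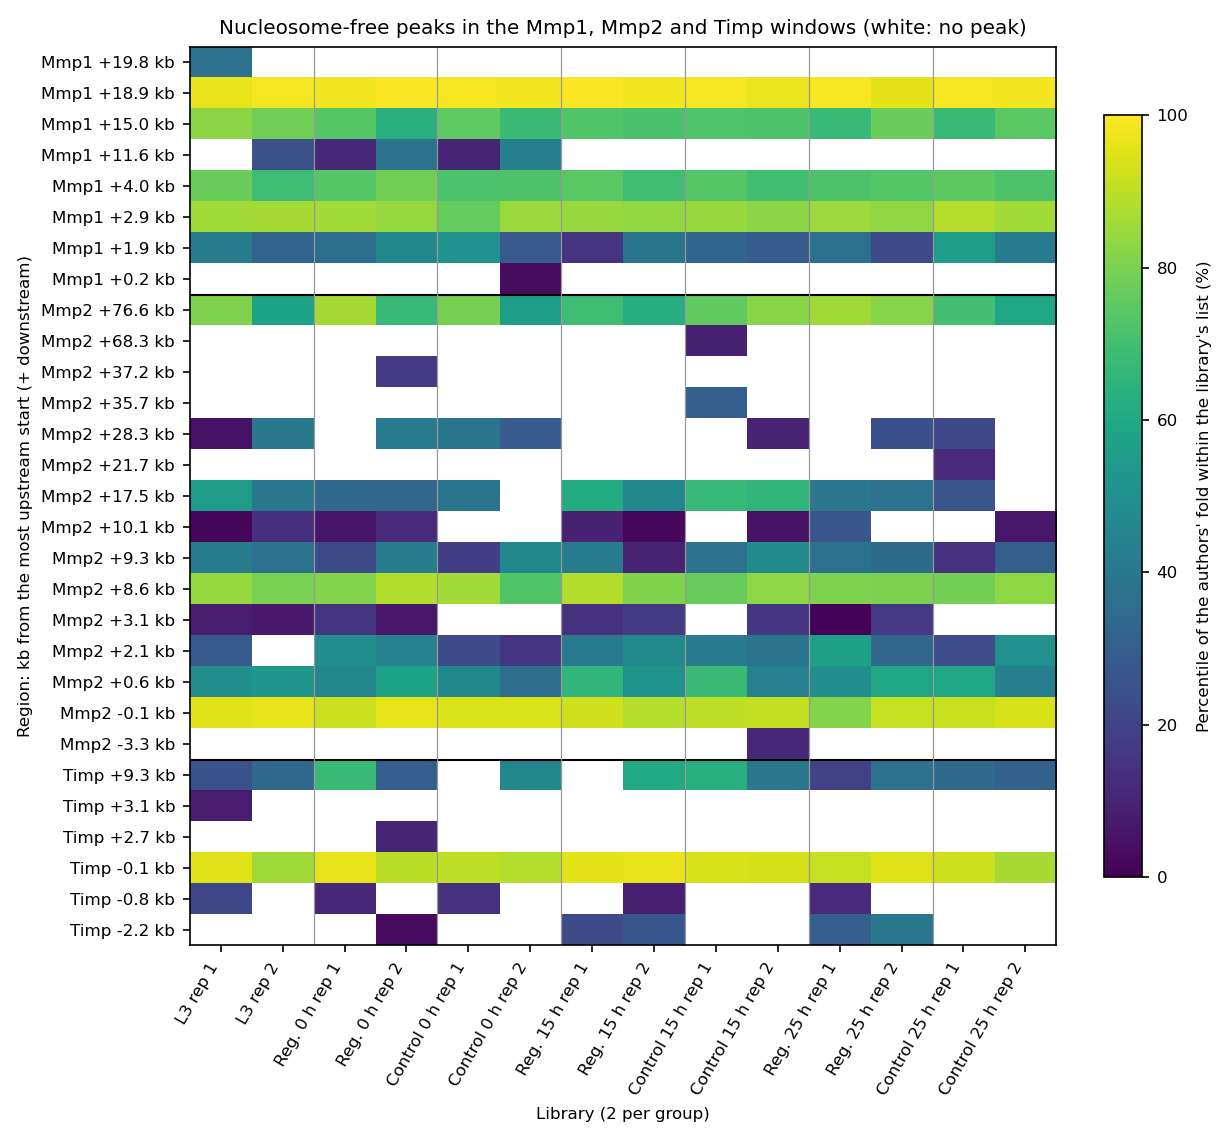
Percentile (%, colour) of the authors' fold within its own list for each of the 29 nucleosome-free regions (rows, named by distance in kb from the most upstream start of the gene) in each of the 14 libraries (columns); white means no peak. The 11 regions in all libraries form unbroken rows, and the Mmp1 region at 11.61 kb and the Timp region at −2.17 kb are broken by time and by damage.

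Gained regions were those that both regenerating libraries of a time listed and neither control library did, and lost regions the reverse. Here and in the other comparisons, the share of all regions is over those listed in at least 2 of the 4 libraries compared. Members gained 2 of 19 regions at 0 h, where 5.41% of all regions were gained. They gained 1 of 17 at 15 h, against 3.19%, and 2 of 18 at 25 h, against 5.27%. These 5 calls fell on 3 regions, 2 in Mmp2 introns and 1 upstream of Timp, and no Mmp1 region was gained. No member region was lost at any time, where 0.834%, 2.54% and 1.33% of all regions were lost at 0, 15 and 25 h. With so few member regions, a share near these backgrounds cannot be told from them.

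Regenerating libraries were on average the deeper ones, as the background pile-up shows. It was 2.86 and 3.10 fragments in regenerating and 1.62 and 2.83 in control discs at 0 h. At 15 h regenerating discs had 2.69 and 3.45 and control discs 2.27 and 3.45, and at 25 h regenerating discs had 2.99 and 3.67 and control discs 2.46 and 3.01. The groups did not overlap at 0 h and overlapped at 15 and 25 h. The part of depth in single calls of member regions is given beside each. It is the outcome of a filter that scales the peak to the depth of the libraries without it and allows for counting error.

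A region upstream of Timp, which overlaps a Syn coding exon (3R, 10215026 to 10215331, 306 bp, 2019 bp from the Timp start), was found in 5 of 6 regenerating libraries and in 0 of 8 undamaged libraries. Its percentiles were 2.75 in regenerating 0 h replicate 2, 23.2 and 26.7 at 15 h, and 30.1 and 39.9 at 25 h. The pile-ups at its summits were 11 fragments at 0 h, 17 and 19 for the 15 h libraries and 20 and 24 for those of 25 h, over local backgrounds of 3.10 to 3.74. The peak was among the weakest of its list at 0 h and below the median in every list, and all 10 pairs of its 5 peaks overlapped. The peaks of regenerating 0 h replicate 2 (10215038 to 10215132) and regenerating 25 h replicate 2 (10215127 to 10215257) met only at their edges. The region overlapped 164 bp of the Syn exon (3R, 10214972 to 10215189), and 4 of the 5 peaks ended before the tandem repeat. A mononucleosome peak lay over it in regenerating 25 h replicate 1 alone.

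Presence of each region was tested with damage over all label orders within times (exact permutation, two-sided, smallest possible p 0.00926), with Benjamini-Hochberg adjustment over 18797 regions. For the Syn exon region p was 0.0278 and adjusted p was 1. No region of the genome passed the adjusted threshold, and 241 regions (1.28%) had an unadjusted p under 0.05. Only 69 regions reached the smallest possible p, too few for any to pass after adjustment over 18797. Adjusted values therefore do not show that presence was unchanged. Regions gained at both 15 and 25 h, like the Syn exon region, numbered 132 (0.702% of the 18797), and 73 of them were in no undamaged library. The 25 h call held when the peak was scaled to the depth of the libraries without it with counting error, and the 15 h call did not, nor with lists of equal length. The 25 h call was lost if peaks had to cover at least 1 in 2 of the bases of the region.

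The other Timp regions showed no call. One at the 3′ end, in a Syn intron (3R, 10203573 to 10203768), was in 12 libraries and not listed in regenerating 15 h replicate 1 and control 0 h replicate 1. One 736 bp upstream of the start (3R, 10213743 to 10213916) was in 5 libraries, 3 regenerating, 1 control and 1 L3 (p = 0.583, exact permutation, adjusted p = 1). The 2 regions in the Timp introns were in 1 library each, 1 in L3 and 1 in regenerating discs at 0 h.

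An Mmp2 intronic region 2925 bp downstream of the open start (2R, 9680613 to 9680933) was gained with damage at 0 h and at 25 h. It was in 6 of 6 regenerating, 2 of 2 L3 and 1 of 6 control libraries, the last being control 15 h replicate 2. Percentiles were 15.3 and 6.30 in regenerating discs at 0 h, 14.2 and 17.8 in those of 15 h and 0.947 and 16.7 in those of 25 h, 8.16 and 6.96 in L3 discs, and 15.7 in the control. None ranked above 17.8, and regenerating 25 h replicate 1 was close to the bottom. The test of damage gave p = 0.0278 (exact permutation, adjusted p = 1), and 211 of the 18797 regions (1.12%) were gained at both 0 and 25 h.

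Not all of its peaks lay over each other, and 29 of 36 pairs overlapped. The peak of regenerating 25 h replicate 1 (9680779 to 9680933) overlapped only that of regenerating 0 h replicate 2 (9680624 to 9680817), which joins it to the rest. Without regenerating 0 h replicate 2 the 25 h call was lost, and so it was when a peak had to reach the strongest summit. The filter on depth with counting error kept both calls against the genome background and neither against the local background, and lists of equal length or the coverage of 1 in 2 bases kept neither. With −log10 q of at least 5 the 25 h call was lost and the 0 h call kept. No mononucleosome peak overlapped the region in any library.

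A further Mmp2 intronic region (2R, 9673642 to 9673882, 9976 bp from the open start) was gained at 0 h. It was in 5 of 6 regenerating, 2 of 2 L3 and 2 of 6 control libraries (p = 0.278, exact permutation, adjusted p = 1). Its percentiles were 5.65 and 12.02 in regenerating discs at 0 h, 8.99 and 1.97 at 15 h and 26.7 in replicate 1 at 25 h. They were 1.53 and 13.96 in L3 discs, 4.79 in control 15 h replicate 2 and 5.88 in control 25 h replicate 2. Presence overlapped between regenerating and control discs at 15 and 25 h, and 32 of 36 pairs of peaks overlapped. The peak of L3 replicate 1 (9673644 to 9673719) did not overlap that of L3 replicate 2 (9673769 to 9673882). Nor did it overlap that of regenerating 0 h replicate 1 (9673726 to 9673848). The 0 h call was lost with the filter on depth with counting error, with lists of equal length and with −log10 q of at least 5.

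The remaining Mmp2 regions had no call. One near the open start (2R, 9681609 to 9681868) was in 13 libraries and one at 2R, 9666294 to 9666428 in 12, with all 6 regenerating, both L3 and 4 of 6 control libraries. One 2541 bp downstream of the start without a region (2R, 9655505 to 9655689) was in 8, with 2 of 6 regenerating, 2 of 2 L3 and 4 of 6 control libraries (p = 0.583, exact permutation, adjusted p = 1). The 5 regions in 1 library were 1 in regenerating discs at 0 h, 3 in control discs at 15 h and 1 in control discs at 25 h.

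A region over a coding exon of Mmp1 and the intron beside it had a peak at 0 h with or without damage and none at 15 or 25 h. The region (2R, 24676301 to 24676843, 543 bp) covered 299 bp of the exon (24676196 to 24676599), and its peaks did not all lie in the same place. On the exon lay those of 1 regenerating library (replicate 2) and 1 control library (replicate 1) of 0 h, while the other 2 peaks of 0 h and that of L3 replicate 2 lay wholly in the intron. It was in both regenerating and both control libraries at 0 h, in 0 of 8 libraries at 15 and 25 h and in L3 replicate 2. Percentiles at 0 h were 11.6 and 38.1 in regenerating and 10.4 and 43.0 in control discs, and L3 replicate 2 had 24.9. The pile-ups at 0 h were 13 and 23 fragments in regenerating and 10 and 21 in control discs, and the groups overlapped.

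By the same rule applied between times, the merged exon and intron region closed in regenerating discs at 15 h against 0 h, where 3.03% of all regions closed, and at 25 h against 0 h, where 2.37% did. In control discs it closed at 15 h against 0 h, where 1.06% of all regions closed, and at 25 h against 0 h, where 2.23% did. These comparisons share their 0 h libraries in pairs. Of the 18797 regions in 1 to 11 of the 12 time-course libraries 6 (0.0319%) were in all 4 libraries of 0 h and in none of the 8 later ones, with widths of 91 to 543 bp, and the Mmp1 region was the widest of them, the next being 269 bp. A test of 0 h against the other times, chosen after the values were seen, gave p = 0.00444 (exact permutation of time labels within treatment, two-sided, the smallest it can give) and adjusted p = 1. No other member region was called between times. Of all regions, 2.67%, 2.34% and 2.21% opened in regenerating discs at 15 against 0 h, 25 against 15 h and 25 against 0 h, and 4.52%, 1.12% and 3.37% did in control discs. From 15 to 25 h, 2.07% of all regions closed in regenerating and 4.17% in control discs. In the test of 0 h no region passed the adjusted threshold, and 221 regions (1.18%) had an unadjusted p under 0.05. With 23 regions at the smallest possible p, none could pass there either.

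These calls join the exon and intron peaks, and 7 of 10 pairs of the 5 peaks overlapped. That of control 0 h replicate 1 (24676511 to 24676597) lay inside the wide peak of regenerating 0 h replicate 2 (24676301 to 24676836) and beside the other 3. Without regenerating 0 h replicate 2 the region split and the closing in control discs was lost, as it was when a peak had to reach the strongest summit. With peaks of −log10 q of at least 5, or with coverage of 1 in 2 bases, all 4 closing calls were lost, and lists of equal length ended those in regenerating discs. The filter on depth with counting error kept all 4, and control 0 h replicate 1, which had the peak, was the shallowest of the libraries. Mononucleosome peaks lay over the region in both regenerating libraries and control replicate 1 at 0 h, and in regenerating replicate 2 at 25 h.

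**Figure D3:**
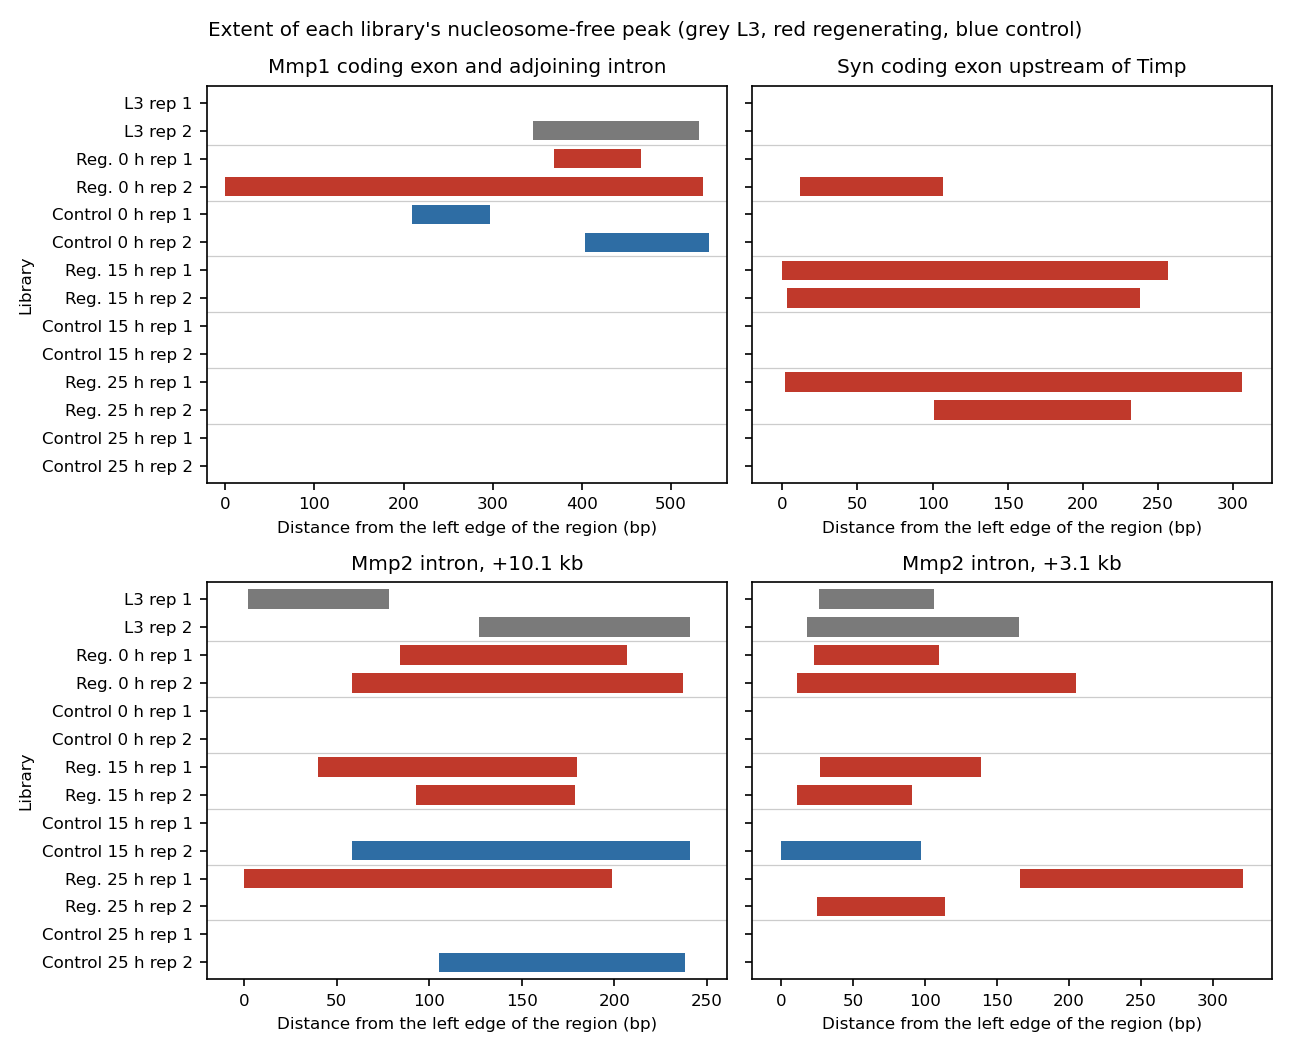
Extent of the nucleosome-free peak in each library (rows) along 4 member regions, as distance in bp from the left edge of the region (x axis); grey is L3, red regenerating and blue control. The Mmp1 region has peaks in all 4 libraries of 0 h, at different places along it, the Syn exon region in 5 regenerating libraries, and in the Mmp2 intron at 3.08 kb 1 peak of 25 h stands apart from the rest.

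In L3 discs, set against the control discs of each time, members opened 2 of 19 regions against 0 h, where 4.04% of all regions opened. They opened 0 of 17 against 15 h, where 2.82% did, and 1 of 17 against 25 h, where 5.41% did. All 3 calls were on the 2 Mmp2 introns gained with damage, and these comparisons share the control libraries with those of damage. Merged Mmp2 intron regions at 3.08 and 10.1 kb were thus listed in both libraries of regenerating discs at 0 h and in both of L3 discs. Neither library of the 0 h controls listed them. At 10.1 kb the peaks of the 2 L3 libraries did not overlap, so that call joins separate stretches of DNA. No member region closed in L3 discs, where 0.56%, 2.07% and 1.85% of all regions closed against 0, 15 and 25 h. The filter on depth with counting error kept 1 of the 3 against the genome background and 0 against the local background. The 1 kept was the intron at 3.08 kb set against the 25 h controls. Both calls set against the 0 h controls were lost with either background. That at 10.1 kb was also lost in the depth filter without counting error, with the local background. All 3 calls were lost with lists of equal length, with coverage of 1 in 2 bases and with −log10 q of at least 5.

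Mononucleosome regions at the 3 genes gave no call of damage. None of 12, 10 and 11 tested regions was gained at 0, 15 and 25 h, where 1.83%, 3.84% and 3.56% of all were gained, and none was lost, where 2.23%, 1.58% and 3.6% of all were lost. Of the 11 nucleosome-free member regions in all libraries 7 (63.6%) also had a mononucleosome peak in all 14, against 60.6% of all such regions. Of the 18 that varied 13 (72.2%) had none in any library, against 45.2% of all that varied. The 13 include all 9 member regions found in 1 library, and such regions were 31.0% of members and 15.0% of all regions.

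Motif letters were searched on both strands in 200 bp around the strongest summit of each region, and a match is a description of the letters alone. TGANTCA, the AP-1 motif, lay in 4 of 29 member regions (13.8%), against 4.41% of all regions. They were the Mmp1 intron 751 bp from the open start, with 1 match, the narrower of the neighbouring Mmp2 introns, with 2 matches, and 2 regions found in 1 control library each. The intron regions of Mmp1 and Mmp2 with these matches were open in all 14 libraries. TTCNNNGAA of Stat92E lay in 3 member regions (10.3%, against 4.15%), namely the same Mmp1 intron, the Mmp2 region in 13 libraries and the Timp region 736 bp upstream. ACCGGTT of Grainy head lay in 1 (3.45%, against 2.76%), again that Mmp1 intron.

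GAGAG of the GAGA factor lay in 7 member regions (24.1%, against 32.8%), among them the Timp start and the Mmp2 intron gained at 0 and 25 h. GGAATG of Scalloped lay in 5 (17.2%, against 9.68%) and CAGGTA of Zelda in 2 (6.9%, against 5.75%). Over whole regions GGAATG lay in 10.3% of member regions, against 11.8% of all. No region of Timp held TGANTCA in this window.

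A wider set comprised 36 genes, of which 6 belong to JNK signalling and AP-1 and the others to the matrix and its receptors and proteases, all found in the annotation, with 454 regions. At 0 h 13 genes gained a region and 3 lost one, where 16.5% and 2.75% of protein-coding genes with a tested region did. At 15 h these numbers were 9 gained and 7 lost (9.54% and 9.48% of protein-coding genes), and at 25 h 10 gained and 5 lost (17.3% and 4.9%). Over all times 21 had a gained and 11 a lost region, 7 of them both, against 30.4% and 14.4% of protein-coding genes. The listed genes had more regions each, a median of 9.5 against 5 over all protein-coding genes.

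Among 13 basement membrane genes 9 had a gained region and 1 a lost one. They included vkg, a collagen IV chain, at 0 h, and LanB1 and LanB2, laminin chains, at 25 h. Col4a1, LanA, Ndg and SPARC had no gained or lost region at any time. Of 6 matrix receptors 4 had a gained and 2 a lost region, and of 6 other metalloproteases 3 had each. Of 5 partners and substrates of the matrix metalloproteases 4 had a gained and 3 a lost region. Of 6 JNK and AP-1 genes, 1 gained a region, namely bsk, which encodes the JNK itself, at 25 h. Another 2 lost one, hep at 25 h and Jra at 15 h. For kay, puc and Ets21C there was neither a gain nor a loss. The shares of protein-coding genes over all times, given above, were 30.4% for gains and 14.4% for losses.

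Of the listed genes, 4 had a region called at 2 or more times or with an unadjusted p under 0.05 by the permutation test above, and adjusted p was 1 for each. An intronic region of Meltrin, a membrane metalloprotease of the ADAM family (3R, 14692102 to 14692309), was gained at all 3 times, in 6 of 6 regenerating and 0 of 8 undamaged libraries (exact permutation p = 0.00926). An intronic region of dally, a glypican (3L, 8881488 to 8881637), was gained at all 3 times as well, in 6 of 6 regenerating, 1 of 2 L3 and 0 of 6 control libraries (exact permutation p = 0.00926). For dlp, the other glypican and a known substrate of Mmp2, an intronic region (3L, 14636673 to 14636797) was gained and a coding exon region (3L, 14664987 to 14665273) was lost, both at 0 h and at 25 h (exact permutation p = 0.0278 for each). An intronic region of kuz, an ADAM protease (2L, 13622210 to 13622438), was lost at 0 and 15 h, in 1 of 6 regenerating, 2 of 2 L3 and 6 of 6 control libraries (exact permutation p = 0.0278). Median percentiles were 16.6 for the Meltrin region, 4.83 for dally, 5.71 and 14.6 for the gained and lost dlp regions and 41.6 for kuz. The outcome of the depth filter for these single regions is not given.

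Among the promoter regions in all 14 libraries of 5232 genes, the 3 whose percentiles most resembled those of each member start over the 14 libraries were named. For Mmp1 they were Gen and Srp54k, which share 1 region (Pearson r = 0.88), and CG30156 (r = 0.88). For Mmp2 they were Pym (r = 0.88), CRAT (r = 0.87) and jumu (r = 0.86), and for Timp CG45263 (r = 0.82), Apc (r = 0.81) and Acbp1 (r = 0.79). These are the highest over 5232 genes, and the libraries share their lists and depths. Between the members themselves r was −0.07 for Mmp1 and Mmp2, −0.0047 for Mmp1 and Timp, and −0.29 for Mmp2 and Timp.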

How the data were processed

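Nucleosome-free and mononucleosome peaks of 14 ATAC-seq libraries were used as deposited, 28 lists called per library. STAR 2.4.0j, MACS2 and dm6 are named in the submitters' processing notes. Not given in the sources used here are fragment length limits, the peak threshold, any control track and the transposase offset. Peak names in the mononucleosome lists carry the nucleosome-free name, but their shortest peaks were 211 to 216 bp long, against 75 to 79 bp. Per the labels' protocols, transposition took 30 min, followed by 13 cycles of PCR.

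Each deposited peak carried a fold enrichment, a ratio over the caller's background, which is the authors' own value. The authors' −log10 p-value and −log10 q-value and the deposited score of each peak stand beside it. Fold ranked peaks within their list only. The deposited files give no read counts. Pile-up and background at each summit were solved from fold and p under a Poisson model (tolerance 0.001 on the log10 p scale), and the lowest background of a list was taken as its depth. These values and the filter built on them cover counting error only.

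Peaks were merged across libraries with pandas 2.3.3 and numpy 2.4.6 under Python 3.11.15 and tested with scipy 1.17.1, and plots used matplotlib 3.10.9. Annotation was BDGP 6.54 of Ensembl release 115, and coordinates are 1-based on Release 6. A region counted as tested at a time if at least 2 of the 4 libraries had it. Scripts were tested on simulated data. Members, lists, motifs and tests were chosen with earlier results of these data known. Values per library are given for regions within 200 bp of a member's start and for regions called in any comparison, other regions by counts and ranges. The listed genes named individually beyond the rule (vkg, LanB1, LanB2, bsk) are examples chosen after their values were seen. Col4a1, LanA, Ndg, SPARC, hep, Jra, kay, puc and Ets21C were named beside them for having no gain. One listed gene, Reck, was matched through an older name. No 2 libraries agreed in more than 85.5% of regions. Alternatives were peak threshold, list length, coverage, depth, window, leaving out each library, motif window and replicate block.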

Additional observations from a re-analysis of the deposited data

How the results depend on the processing

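No call of a named region turned to the opposite direction under any alternative, but counts this small moved. The 5 gains became 3 with the 2 kb window, with the gene body alone or with −log10 q of at least 5, and 2 with lists of equal length. With −log10 q of at least 5, gains over all regions were 1178, 639 and 1131 at 0, 15 and 25 h. Losses were then 131, 505 and 248. With equal lists, gains and losses over all regions were 572 and 429 at 0 h (main 1200 and 185), 598 and 515 at 15 h (main 732 and 582) and 647 and 516 at 25 h (main 1172 and 295). The 0 losses became 1 if peaks had to cover at least 1 in 2 bases of a region. Depth filters as first planned left the counts of gains at members and listed genes unchanged. Over all regions at 0, 15 and 25 h, they left 1190, 726 and 1170 gains against the genome background. Against the local one they left 1144, 721 and 1165, and 2 of the 3 openings of member regions. Counting error was added to that filter after the values were seen, and left 3 gains against the genome background and 1 against the local background. Over all regions at 0, 15 and 25 h, it left 572, 334 and 757 gains and 169, 444 and 251 losses against the genome background. Against the local background it left 267, 191 and 559 gains and 156, 377 and 201 losses, so losses outnumbered gains at 15 h under both. The 3 openings became 6 with coverage and 5 with a peak at the strongest summit (also added later). They became 1 with lists of equal length or counting error against the genome background, and 0 with counting error against the local background. The openings with coverage or lists of equal length were other calls. The 4 closings became 2 with the strongest summit and 1 with −log10 q of at least 5, and openings outnumbered closings under these and with coverage. With lists of equal length 1 mononucleosome region was gained and 1 lost, and with coverage 1 was lost. Listed genes with a gain fell to 12 and 9 under the filters with counting error (genome and local background), and those with a loss to 7 with the gene body alone. Scalloped letters lay in 3 member regions over whole regions.

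Leaving out 1 library gave 4 to 8 gains, the 8 without regenerating 0 h replicate 1, and 0 to 2 losses, with 2 without either control 15 h library and 1 without control 0 h replicate 1, control 25 h replicate 2, regenerating 0 h replicate 2 or regenerating 15 h replicate 2. Openings ranged from 3 to 11 (without L3 replicate 2). They were over 1.5 times the main count without any 1 L3 or control library or regenerating 0 h replicate 2. Closings ranged from 2 without regenerating 0 h replicate 2 to 9 without regenerating 0 h replicate 1 or control 15 h replicate 2, with 7 without replicate 1 of L3, control 0 h or control 15 h. Mononucleosome gains and losses ranged from 0 to 2 each, member regions from 27 to 29 and those in all libraries from 11 to 12. Listed genes with a gain ranged from 21 to 32 (without control 0 h replicate 2) and with a loss from 11 to 20 (without regenerating 15 h replicate 2). Calls need fewer libraries then. Regions with an unadjusted damage p under 0.05 ranged from 111 to 322, with 111 to 124 without any 1 regenerating library, and none passed the adjusted threshold.

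With the replicate number as a block (64 orders, smallest p 0.0312), 69 regions had an unadjusted p under 0.05, against 241, and 0 passed after adjustment. Deviations of same-numbered libraries correlated at −0.03 to 0.12 over 21 pairs of groups, with 1 over 0.1. Such small values show no clear pairing but, with 2 libraries per group, cannot exclude one. The labels do not state any. A library without a peak may hold fragments under the caller's threshold, and a background of 1.62 to 3.67 fragments limits what could be called.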
